A study of Homo sapiens with 9 samples.

Results

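The 10 genes described here encode inducible and constitutive heat shock proteins. They were chosen by name, as the rows of a SLAM-Seq table whose RefSeq identifier belongs to HSPA1A, HSPA1B, HSPA8, HSPH1, HSP90AA1, HSP90AB1, DNAJB1, HSPB1, HSPD1 or HSPE1, out of 26869 genes in the table, of which 17477 had any read. All 10 genes had reads in each library. The cells were MCF10A, a non-transformed human mammary epithelial line, in which JUN was knocked out and replaced by a virally delivered JUN-AID-V5, a JUN protein with an auxin-inducible degron, together with TIR1, the plant receptor that auxin needs to trigger degradation. All groups shared this knockout and both transgenes, and no cells with their own JUN were part of the design. The first group, named no 4sU, received no 4-thiouridine, and its labels do not say whether it was given DMSO. The second, DMSO 4sU, received the solvent DMSO and then 100 µM 4sU for 1 h. The third, IAA 4sU, received 100 µM of the auxin indole-3-acetic acid for 1 h to degrade JUN, followed by 100 µM 4sU for 1 h.

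Heat shock proteins are molecular chaperones, which hold, fold or refold other proteins. HSP70 proteins bind exposed stretches of a client with the help of HSP40 and are recharged by HSP110, HSP90 matures kinases and receptors, small heat shock proteins keep unfolded clients soluble, and HSP60 with HSP10 forms a folding chamber in mitochondria. Some of these genes are made at high level in unstressed cells, while others are known for a steep rise when heat shock factor HSF1 binds repeated heat shock elements in their promoters.

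Cells incorporate 4sU into the RNA they make during the pulse, where sequencing reports a C in place of T after alkylation with iodoacetamide. The T>C conversion rate, the share of T positions read as C, therefore rises with the newly made share of an mRNA, whereas total mRNA is given as CPM, the reads scaled to library size. Reads came from the 3′ end of each mRNA, so the number of reads did not grow with transcript length and CPM were not divided by length. The 3 no 4sU and 3 DMSO 4sU libraries held between 18997637 and 24014195 reads. The 3 IAA columns were identical in all 56868 rows, with 20057746 reads, and were counted as 1 library, so IAA values have no replicate error and no test. Which replicate this library belongs to is not known. DMSO 4sU replicate 1 stood apart from the other two labelled controls, with a median rate of 0.270% against 0.201% and 0.203%. The no 4sU medians were 0.0543%, 0.0544% and 0.0556%, and the IAA median was 0.243%, over 10895 genes. The labels only number the replicates, which the study describes as biological, and p-values measure the spread between these libraries. All 10 epithelial markers were read, at a summed 3773 to 4875 CPM, against 13.2 to 18.7 CPM for 6 fibroblast markers with COL1A2 at 0, and 1.68 to 7.93 CPM for 4 blood cell markers with PTPRC, CD3E and HBB at 0. The epithelial markers were uneven, with KRT6A at 1202 to 2293 CPM and KRT14 at 3.63 to 10.6 CPM.

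Between 947 reads (HSPA1B) and 48546 reads (HSP90AA1) stood behind a heat shock protein value in a library. How many T positions were covered is unknown from the values used, and no counting error can be given for a single rate. Each of the 10 genes had 1 distinct 3′ interval with reads, from 127 bases (HSPB1) to 2347 bases (HSPH1). Whether short intervals missed reads was not tested, so the order of genes by CPM is less certain than a comparison of libraries. HSPA1A and HSPA1B were each listed 5 times, of which 4 rows had no read in any library, and only the row with reads was used. These neighbouring genes are closely related copies. How alike their counted intervals of 263 and 381 bases are was not checked, so the split of reads between them is uncertain.

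Promoters are shown for 3 members because heat shock elements are the feature best known to be shared by this family. The sequences are the 250 bases before a transcription start in RefSeq (GRCh38.p14), 5′ to 3′ on the gene's strand, with capitals marking a heat shock element of 3 alternating units, GAANNTTCNNGAA or TTCNNGAANNTTC, searched on both strands. HSPA8 lies at chr11:123062137-123062386 on the minus strand, HSP90AA1 at chr14:102087045-102087294 on the minus strand and HSPA1A at chr6:31815293-31815542 on the plus strand.
HSPA8: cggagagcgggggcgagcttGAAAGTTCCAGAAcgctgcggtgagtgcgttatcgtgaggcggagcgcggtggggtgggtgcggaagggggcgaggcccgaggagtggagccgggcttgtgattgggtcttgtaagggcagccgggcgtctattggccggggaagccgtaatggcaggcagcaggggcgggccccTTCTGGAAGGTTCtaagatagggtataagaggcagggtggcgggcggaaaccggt
HSP90AA1: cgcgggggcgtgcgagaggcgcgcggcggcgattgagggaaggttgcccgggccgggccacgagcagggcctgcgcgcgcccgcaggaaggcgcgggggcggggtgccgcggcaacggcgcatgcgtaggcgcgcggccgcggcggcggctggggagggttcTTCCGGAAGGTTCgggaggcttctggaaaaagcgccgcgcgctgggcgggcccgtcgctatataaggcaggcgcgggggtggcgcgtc
HSPA1A: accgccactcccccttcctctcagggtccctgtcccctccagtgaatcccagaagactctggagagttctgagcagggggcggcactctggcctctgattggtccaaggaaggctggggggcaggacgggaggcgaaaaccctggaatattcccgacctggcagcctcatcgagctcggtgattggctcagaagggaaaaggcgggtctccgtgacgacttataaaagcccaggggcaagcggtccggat
A match was found for 4 of the 10 genes, HSPA8, HSP90AA1, HSP90AB1 and HSPD1, in 4 of their 16 windows, compared with 155 of 35116 windows (0.441%) over all genes. In the 6 other genes these letters were not in the window, which says nothing about binding of the factor.

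DNAJB1, the HSP40 partner that delivers clients to HSP70, had the highest mean conversion rate of the 10 genes in the DMSO 4sU libraries, with a range that overlapped that of HSPA8. Its gene lies at chr19:14625581-14671203 on the minus strand (GENCODE annotation of GRCh37, the build from which all gene positions here are taken). The rate was 1.74%, 0.904% and 0.700% in DMSO 4sU replicates 1 to 3 and 1.37% in the IAA library, against 0.0664%, 0.0289% and 0.0821% without 4sU. The groups did not overlap, and replicate 1 was the highest of the labelled controls. The mean rose from 0.0591% ± 0.0273 to 1.11% ± 0.549 (SD, n = 3 each), an 18.8-fold difference. On log2(rate + 0.0005) the increase was 3.35 (SE 0.45, adjusted p = 0.00336, limma).

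HSPA8, the constitutive cytosolic HSP70 (HSC70), followed. The gene lies at chr11:122928197-122933938 on the minus strand, and both matches in its promoter are printed above. Its rate was 0.986%, 0.589% and 0.728% with DMSO and 4sU, 1.46% in the IAA library and 0.0562%, 0.0749% and 0.0841% without 4sU. The IAA value was above all 3 controls, which in turn were all above the unlabelled libraries. The mean rose 10.7-fold, from 0.0717% ± 0.0142 to 0.768% ± 0.202 (SD, n = 3 each), or by 2.73 on the log2 scale (SE 0.34, adjusted p = 0.00261, limma).

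HSPA1A and HSPA1B, the stress-inducible HSP70 genes, lie at chr6:31783320-31785723 and chr6:31795515-31798031 on the plus strand. Their intervals have the lengths of the annotated 3′ UTR pieces at chr6:31785457-31785719 and chr6:31797651-31798031. The rate of HSPA1A was 0.487%, 0.235% and 0.208% with DMSO and 4sU, 0.470% in the IAA library and 0.0363%, 0.0372% and 0.0437% without 4sU. For HSPA1B it was 0.555%, 0.253% and 0.276%, then 0.559% in the IAA library, and 0.0615%, 0.0553% and 0.0333% without 4sU. In both genes DMSO 4sU replicate 1 was close to the IAA library and well above replicates 2 and 3, and no labelled library overlapped the unlabelled ones. The increase was 1.93 for HSPA1A (SE 0.35, adjusted p = 0.00734, limma log2 scale). It was 1.98 for HSPA1B (SE 0.36, adjusted p = 0.00779). Counted as 1 gene, the pair was still called higher, one of 6 calls among 9 genes.

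HSPE1, the mitochondrial HSP10, had a lower mean rate than the 3 HSP70 genes. It lies at chr2:198364864-198368173 on the plus strand. The rate was 0.254%, 0.259% and 0.158% with DMSO and 4sU, 0.238% in the IAA library and 0.0541%, 0.0437% and 0.0571% without 4sU. Here replicate 3, and not replicate 1, was apart from the other labelled controls. The increase on the log2 scale was 1.41 (SE 0.27, adjusted p = 0.00859, limma). HSPD1, its HSP60 partner, is the neighbouring gene at chr2:198351308-198381461 on the opposite strand, and its interval has the length of the 3′ UTR piece at chr2:198351308-198351772. Its rate was 0.109%, 0.134% and 0.0993% with DMSO and 4sU. It was 0.146% in the IAA library. The unlabelled libraries gave 0.0655%, 0.0651% and 0.0893%, all below the labelled libraries, whose lowest value was close to the highest unlabelled one. The difference of 0.41 (SE 0.23, adjusted p = 0.172, limma) did not pass the test.

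HSP90AA1 and HSP90AB1 encode the inducible and the constitutive cytosolic HSP90. HSP90AA1 lies at chr14:102547079-102606036 on the minus strand and HSP90AB1 at chr6:44213903-44221625 on the plus strand. The rate of HSP90AA1 was 0.175%, 0.149% and 0.136% with DMSO and 4sU, 0.163% in the IAA library and 0.0516%, 0.0582% and 0.0629% without 4sU. That of HSP90AB1 was 0.118%, 0.119% and 0.0796%, then 0.122% in the IAA library, and 0.0658%, 0.0470% and 0.0473% without 4sU. The labelled libraries of both genes were above all unlabelled ones, and those of HSP90AA1 were tightly grouped. HSP90AA1 increased by 0.91 (SE 0.22, adjusted p = 0.0177, limma log2 scale). This call was lost without no 4sU replicate 1 (adjusted p = 0.0571) or no 4sU replicate 2 (adjusted p = 0.0563). Leaving out any same-numbered replicate of both groups also lost it. HSP90AB1 differed by 0.58 (SE 0.25, adjusted p = 0.0923), which did not pass.

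HSPB1, the small heat shock protein HSP27, lies at chr7:75931990-75933612 on the plus strand. Its rate was 0.154%, 0.0894% and 0.111% with DMSO and 4sU, 0.133% in the IAA library and 0.0495%, 0.0325% and 0.0331% without 4sU. The increase was 0.92 (SE 0.27, adjusted p = 0.0317, limma log2 scale). The call was lost on leaving out no 4sU replicate 1, 2 or 3 (adjusted p = 0.0573, 0.0873 and 0.0812), or DMSO 4sU replicate 1 or 3 (adjusted p = 0.0622 and 0.0564). It was also lost without any same-numbered replicate of both groups. HSPH1, the HSP110 that recharges HSP70, lies at chr13:31709110-31736525 on the minus strand, and its interval has the length of the 3′ UTR piece at chr13:31709111-31711457. Its rate was 0.135%, 0.176% and 0.0963% with DMSO and 4sU, 0.146% in the IAA library and 0.0700%, 0.0539% and 0.0572% without 4sU. The difference of 0.73 (SE 0.26, adjusted p = 0.0551, limma) did not pass with all libraries and passed without DMSO 4sU replicate 3 (adjusted p = 0.0430).

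**Figure D1:**
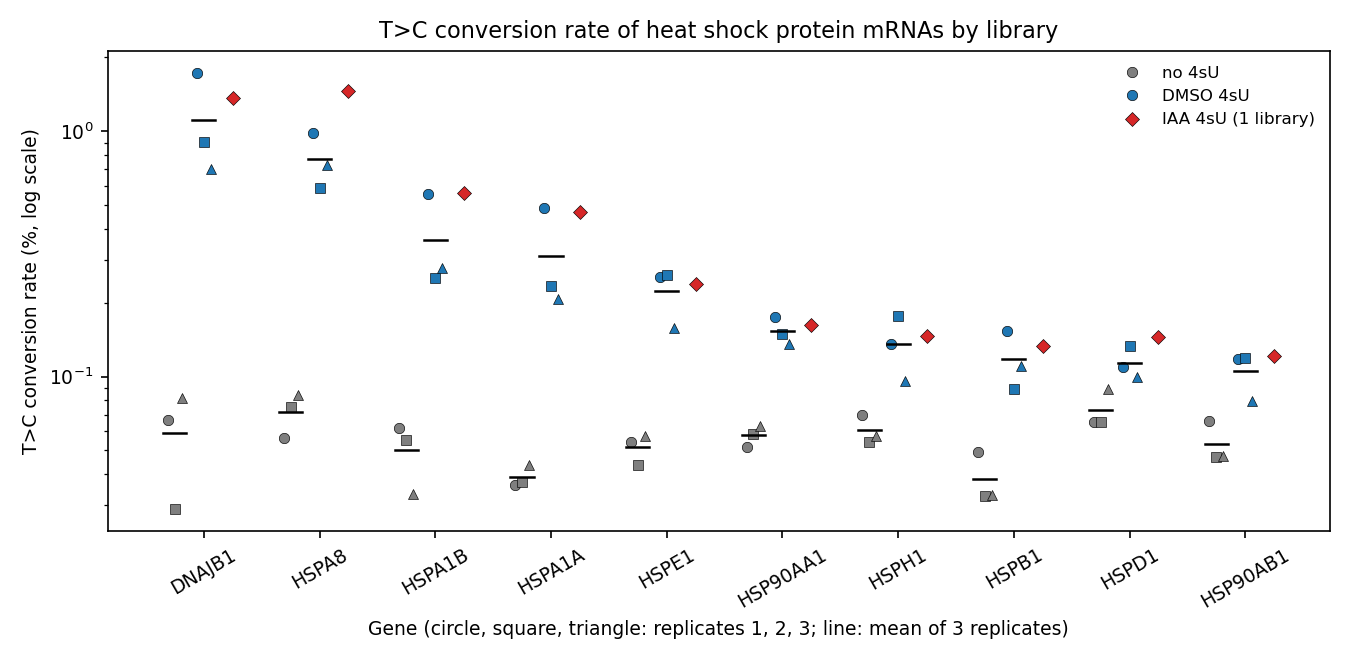
T>C conversion rate in percent (log axis) of the 10 heat shock protein genes in each library, ordered by the DMSO 4sU mean (lines), with circles, squares and triangles for replicates 1, 2 and 3 and a diamond for the IAA library. All labelled values lie above the unlabelled ones of the same gene, and the distance is widest for DNAJB1 and HSPA8.

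The rate rose in 7 of the 10 genes, against 48.8% of 10895 genes tested, and none fell. In 10 of 10 the labelled controls lay above all unlabelled libraries, against 62.8% of all genes. Both shares over all genes include genes with few reads. Among genes averaging at least 200 reads, to which all 10 belong, a larger share rose, and those counts are given in the last section. The median log2 increase was 1.16 over the 10 genes and 1.28 over all genes tested. Because most mRNAs gained conversions in the pulse, the comparison was also made with the median log2 rate of each library set to 0. The rate then rose in 2 of the 10 genes (8.13% of all genes) and fell in 0 (2.26%), and over all genes the calls changed from 5316 higher and 10 lower to 886 higher and 246 lower. Both were DNAJB1, at 1.96 (SE 0.39, adjusted p = 0.0343, limma), and HSPA8, at 1.34 (SE 0.29, adjusted p = 0.0408, limma). HSPA1A and HSPA1B were at 0.55 and 0.60 and HSPE1 was at 0.03, none past the threshold. Direction turned in the other 5, none of which passed the centred test, with HSP90AA1 at -0.47, HSPB1 at -0.47, HSPH1 at -0.65, HSP90AB1 at -0.80 and HSPD1 at -0.97.

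The rate of DNAJB1 was 6.42, 4.50 and 3.44 times the median rate of the library in DMSO 4sU replicates 1, 2 and 3. That of HSPA8 was 3.65, 2.93 and 3.58 times the median. The background without 4sU was not subtracted, so these are ratios of rates and not of the newly made share. HSPA8 was thus steadier between the controls than DNAJB1 once the library median was taken into account. HSPA1A was at 1.80, 1.17 and 1.02 and HSPA1B at 2.05, 1.26 and 1.36 times the median, so the higher rate of both in replicate 1 was larger than the difference between library medians. HSP90AA1 was at 0.649, 0.740 and 0.668 times the median, and HSPB1, HSPD1, HSP90AB1 and HSPH1 were also below the median gene in all 3 controls. Over the 7364 genes that averaged 200 reads or more, the mean rate with DMSO and 4sU was at percentile 95.5 for DNAJB1 and 92.3 for HSPA8, and at 12.6 for HSP90AB1. In the order of mean rates, only HSPA8 and the next gene, HSPA1B, had ranges that did not overlap. DNAJB1 and HSPA8 overlapped, as did all neighbours from HSPA1B (0.361%) down through HSPA1A, HSPE1, HSP90AA1, HSPH1, HSPB1 and HSPD1 to HSP90AB1 (0.105%). The genes with a heat shock element match, HSPA8, HSP90AA1, HSPD1 and HSP90AB1, were spread over this order down to its last gene. DNAJB1, first in the order, had no exact match, and near matches or bases beyond the windows were not searched.

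**Figure D2:**
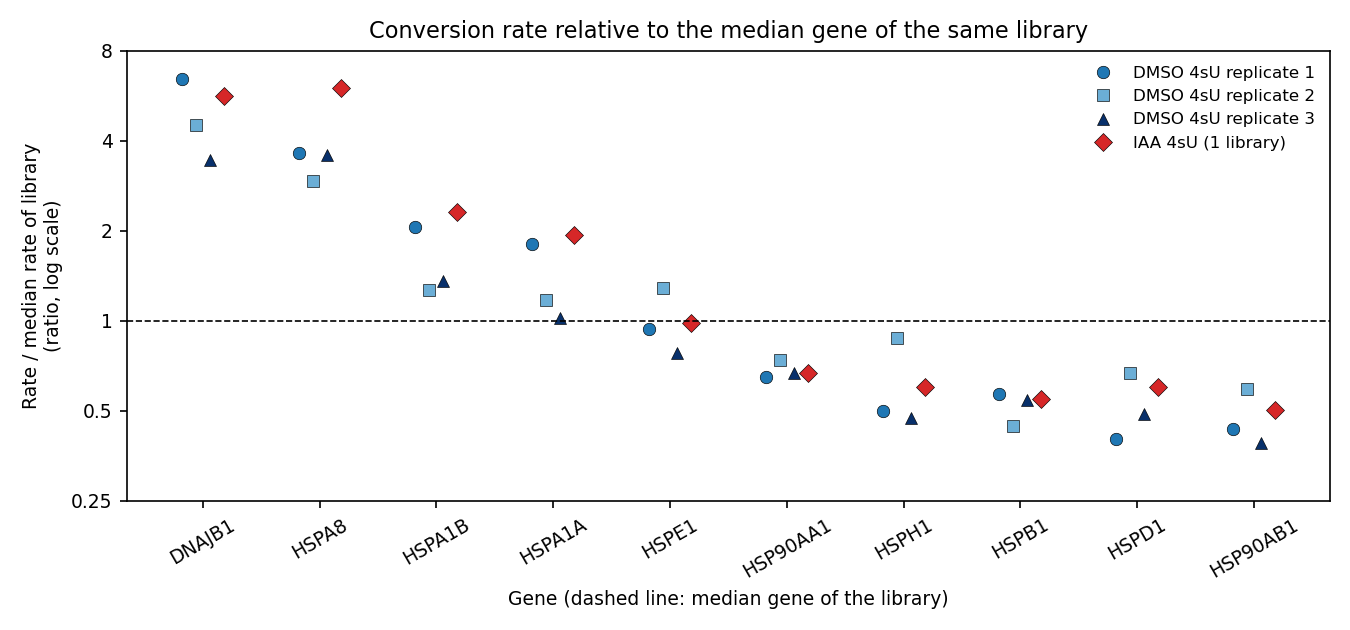
Conversion rate of each gene divided by the median rate of the same library (ratio, log axis) in the 3 DMSO 4sU libraries and the IAA library, with the dashed line at the median gene. DNAJB1 and HSPA8 lie above 2.9 in each labelled library, while HSP90AA1, HSPH1, HSPB1, HSPD1 and HSP90AB1 lie below 1.

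Total mRNA was compared between the same 6 libraries. CPM are shares of the reads of a library, so the number of cells and their RNA content were not measured. In these bulk samples, fewer cells with an mRNA and less of that mRNA per cell cannot be told apart. HSP90AA1 had the highest CPM of the 10 mRNAs, at 1898, 1736 and 1498 CPM without 4sU, 1663, 2022 and 1709 CPM with DMSO and 4sU, and 1819 CPM in the IAA library. HSPA1B had the lowest, at 46.8, 64.1 and 59.4 CPM, then 59.0, 64.1 and 51.4 CPM, and 68.5 CPM in the IAA library. The groups overlapped in both genes. In the DMSO 4sU libraries the order of mean CPM was HSP90AA1, HSP90AB1, HSPA1A, HSPB1, HSPH1, HSPD1, HSPE1, HSPA8, DNAJB1 and HSPA1B. The ranges of HSP90AB1, HSPA1A and HSPB1 did not separate from their neighbours among these 3, nor did those of HSPE1, HSPA8 and DNAJB1. DNAJB1, HSPA8 and HSPA1B, which led the order of conversion rates, were the last 3 by mean CPM in these libraries. Without 4sU HSPE1 was below HSPA8, their ranges overlapping in both groups.

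None of the 10 mRNAs passed the test for a change in total level between DMSO 4sU and no 4sU. By limma 0 of 10 passed the threshold and 0 had an unadjusted p under 0.05, against 192 of 11528 genes (1.67%) that were lower and 0 that were higher over the whole table. At an unadjusted p under 0.05 there were 327 higher and 861 lower genes in the table. edgeR's quasi-likelihood test and DESeq2 on recovered reads also called 0 of 10, each with 1 gene, HSPB1, at an unadjusted p under 0.05. The groups overlapped in all 10 genes, so 0 of 10 were apart, against 19.4% of all genes. The median log2 difference was 0.02 over the 10 genes and 0.04 over all genes.

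The largest differences in total mRNA were in HSPB1, HSPA8 and HSP90AB1. HSPB1 was at 203, 260 and 260 CPM without 4sU and at 545, 259 and 337 CPM with DMSO and 4sU, with 462 CPM in the IAA library. DMSO 4sU replicate 2 lay within the range of the unlabelled libraries, and the log2 difference of 0.56 (SE 0.26, 95% interval -0.03 to 1.16, adjusted p = 0.515, limma) was 0.07 without replicate 1 of both groups. HSPA8 was at 193, 146 and 129 CPM without 4sU, 74.2, 175 and 109 CPM with DMSO and 4sU, and 86.6 CPM in the IAA library. Its log2 difference was -0.49 (SE 0.28, 95% interval -1.12 to 0.15, adjusted p = 0.621, limma) and -0.11 without replicate 1 of both groups. HSP90AB1 was at 418, 503 and 542 CPM, then 802, 481 and 656 CPM, and 752 CPM in the IAA library, a log2 difference of 0.35 (SE 0.22, adjusted p = 0.651) that was -0.01 without replicate 1. In all 3 genes DMSO 4sU replicate 1 was farthest from the unlabelled libraries, and the part of this library in the differences beyond the values given was not tested.

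The stress-inducible HSPA1A was at 295, 604 and 564 CPM without 4sU, 502, 512 and 488 CPM with DMSO and 4sU, and 527 CPM in the IAA library. Its labelled controls were close together, while no 4sU replicate 1 was the lowest of the 7 libraries. The log2 difference was 0.07 (SE 0.28, 95% interval -0.55 to 0.69) and turned to -0.35 without that library. DNAJB1 was at 88.6, 126 and 100 CPM without 4sU and at 73.8, 107 and 82.3 CPM with DMSO and 4sU, with 85.9 CPM in the IAA library, a log2 difference of -0.29 (SE 0.21, adjusted p = 0.689, limma). DNAJB1 was lower in each of the 3 same-numbered pairs, and with the replicate number as a block the SE was 0.12 (95% interval -0.57 to -0.02, adjusted p = 0.3, limma), which did not pass either. HSPH1 was the steadiest, between 204 and 234 CPM in the 6 libraries, and HSPD1 and HSPE1 were both highest in no 4sU replicate 1, at 250 and 186 CPM, against 157 to 190 CPM and 120 to 164 CPM in the others.

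**Figure D3:**
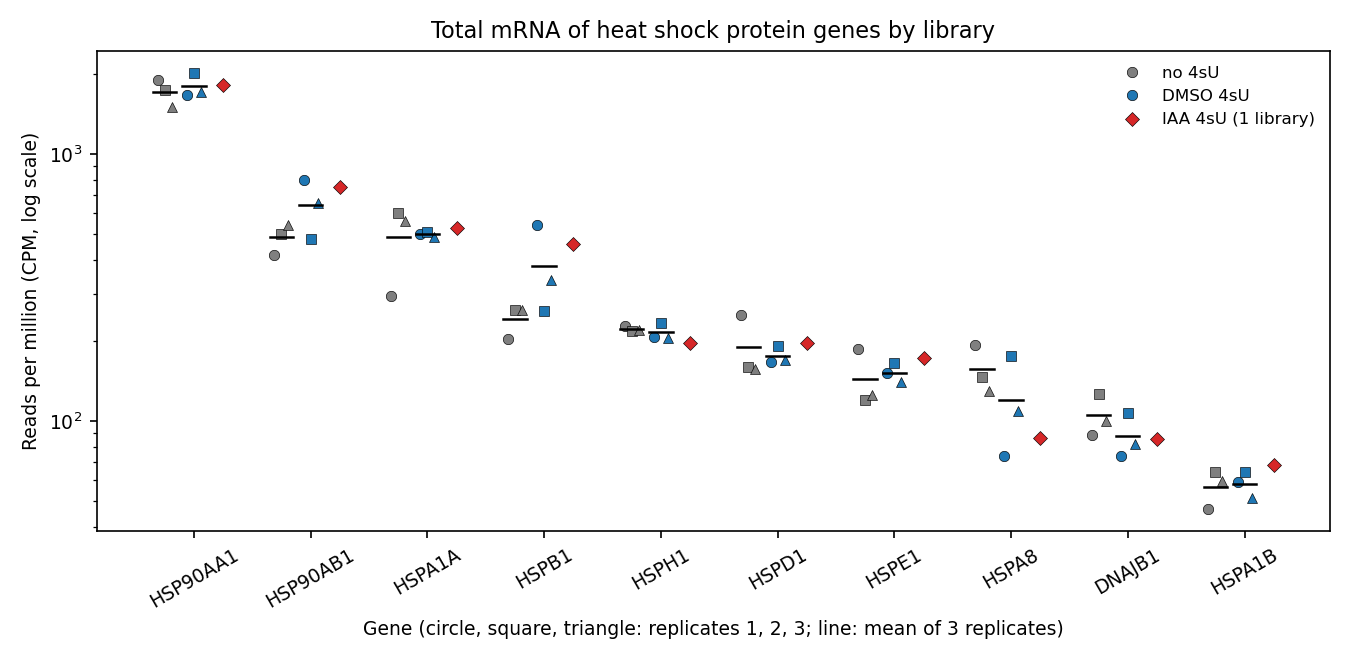
Total mRNA of the 10 genes in CPM (log axis) in each library, ordered by the DMSO 4sU mean (lines), with circles, squares and triangles for replicates 1, 2 and 3 and a diamond for the IAA library. The no 4sU and DMSO 4sU libraries overlap in all 10 genes, from HSPA1B near 58.2 CPM to HSP90AA1 near 1798 CPM.

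**Figure D4:**
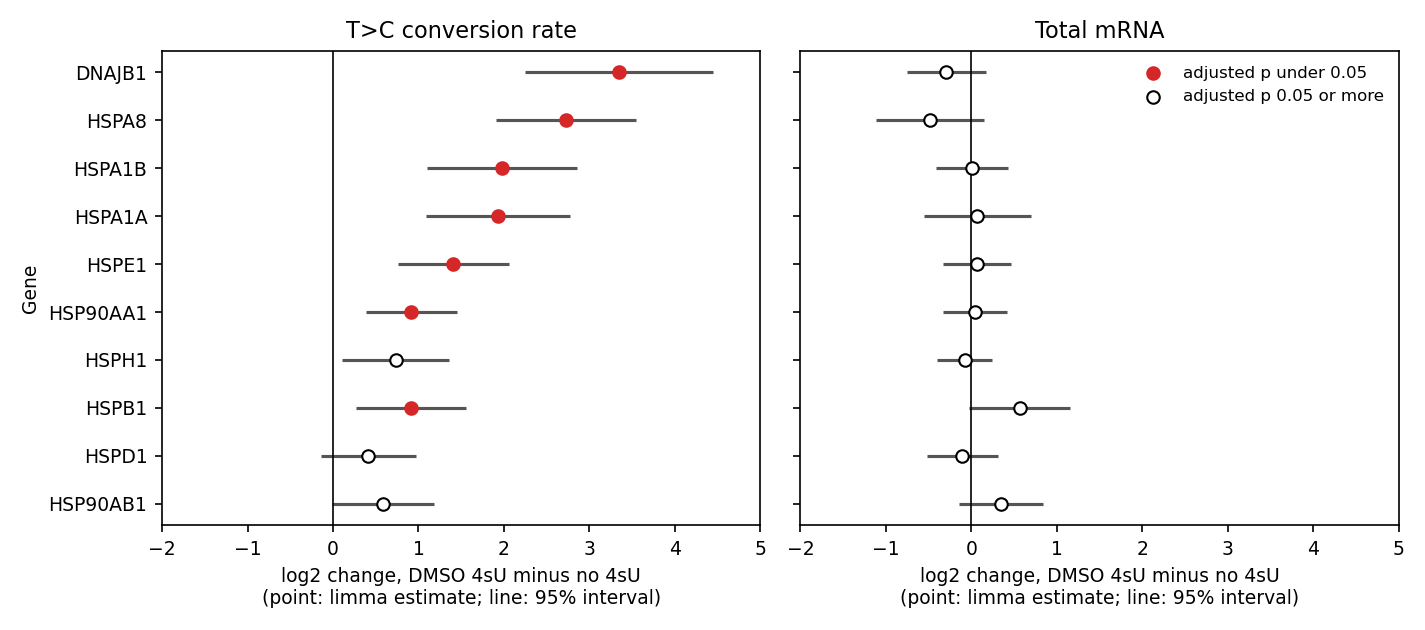
Log2 change from no 4sU to DMSO 4sU in conversion rate (left) and total mRNA (right), as limma estimates with 95% intervals, filled where the adjusted p was under 0.05. The rate of 7 genes is filled, led by DNAJB1 at 3.35, and no total mRNA is filled.

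Degradation of JUN was the other question of the design. With 1 IAA library of unknown replicate number, its effect and a difference between replicates cannot be told apart. A gene was counted when the IAA library lay outside the range of the 3 DMSO 4sU libraries with a distance of 1 log2 unit or more to their mean, a description with no p-value. In the conversion rate, centred on library medians, this held for 0 of the 10 genes, against 21.6% of 11762 genes. At any distance, 3 of 10 (HSPA8, HSPA1A and HSPA1B) were outside the range, against 49.3% of all genes. Both shares over all genes include genes with far fewer reads than the 947 or more behind each of the 10. No share among genes of similar depth is given, so these counts do not set the 10 genes apart. Which genes these were depended on the centring, since by the deposited rates HSPA8, HSPA1B, HSP90AB1 and HSPD1 lay above their controls and HSPA1A did not. HSPA8 was 0.75 log2 units above the DMSO 4sU mean (SD of the controls 0.16) and above each control. HSPA1A and HSPA1B were 0.45 and 0.48 above, with SDs of the controls of 0.36 and 0.33. Against DMSO 4sU replicate 1 alone these 2 genes were only 0.05 and 0.10 higher. The CPM of HSPA8 in the IAA library was within the range of the controls, and with the rate multiplied by CPM its difference was 0.35. The remaining 7 genes were between -0.09 (HSP90AA1) and 0.23 (DNAJB1).

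In total mRNA 0 of 10 genes were counted, against 0.209% of 11474 genes, and 2 of 10 were outside the range, against 41.5%. These were HSPA1B, 0.15 log2 units higher, and HSPH1, lower by 0.22 on that scale, after TMM scaling. By deposited CPM, without that scaling, HSPA1A, HSPD1 and HSPE1 also lay just above their controls. JUN mRNA was at 30.2, 20.3 and 25.6 CPM in the DMSO 4sU libraries and at 62.9 CPM in the IAA library, 1.21 log2 units higher. The degron acts on the JUN-AID-V5 protein and not on mRNA. The counted interval has the length of the annotated JUN 3′ UTR piece at chr1:59246463-59247749. Whether its reads came from the knocked-out gene or from the JUN-AID-V5 transgene was not tested. Without 4sU JUN was at 48.1, 57.6 and 45.0 CPM, and it was lower with DMSO and 4sU (adjusted p = 0.03, limma, and 0.0517 with the replicate number as a block).

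Other chaperone genes gave a background for the 10. Of 71 genes in 8 lists, 64 could be tested in the conversion rate. Of these 29 rose and none fell, against 48.8% of 10895 genes that rose. That share, which includes genes with few reads, is also the background for the counts of rises in single lists below. The median log2 increase was 0.88 (1.28 over all genes tested). In total mRNA 0 of 63 passed in limma, and 3 had an unadjusted p under 0.05. Of the other HSP40 genes 10 of 18 rose, led by DNAJB9, an HSP40 of the endoplasmic reticulum, at 4.28 (SE 0.42, adjusted p = 0.00149), above DNAJB1. DNAJA1 and DNAJB4, cytosolic HSP40 proteins, followed at 2.10 and 1.84. Of the other HSP70 and HSP110 genes 2 of 9 rose, HSPA13 (1.45) and HSPA5 (1.13), which encodes BiP of the endoplasmic reticulum. TRAP1, the mitochondrial HSP90, rose by 1.17, the single call of 2 genes.

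Of the cochaperones of HSP90 and HSP70 9 of 18 rose, with FKBP5, an HSP90-bound immunophilin of steroid receptors, at 4.84 (SE 0.37, adjusted p = 0.00087), and BAG1 and BAG5, nucleotide exchange factors of HSP70, at 2.14 and 2.09. The chamber TRiC, which folds actin and tubulin, had 2 of 8 subunits called, CCT4 (0.75) and CCT3 (0.72), with a median of 0.69. Of other genes known to be induced by heat shock 5 of 6 rose, among them DEDD2 at 3.63 and MRPL18 at 1.18. None of HSF1, HSF2 and HSBP1, heat shock factors and a protein that binds them, passed, and none of 5 other small heat shock protein genes could be tested, HSPB6, HSPB7 and HSPB8 being at 0 reads. After centring on library medians 4 of the 64 genes were higher, FKBP5, DNAJB9 and DEDD2 among them, and 4 were lower (8.13% and 2.26% of all genes). In the IAA library 5 of the 64 genes, HSF2, HSPA6, TRAP1, DNAJA3 and DNAJC2, met the criterion for the rate, against 21.6% of all genes, and 0 of 63 did for total mRNA. By centred rate, DNAJA3 lay above its controls, and HSF2, HSPA6, TRAP1 and DNAJC2 lay below theirs. HSPA6 rested on few reads, between 12 and 46 in a library. DNAJC2 had between 117 and 365 reads and HSF2 between 144 and 362. The rate of HSF2 was 0.113%, 2.18% and 0.146% in the DMSO 4sU libraries and 0.0891% in the IAA library.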

How the data were processed

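The authors ran the nf-core SLAM-Seq pipeline in Nextflow and deposited 1 table of 3′ intervals with the T>C conversion rate, a fraction with no background subtracted, and reads scaled to library size, a signal that the authors labelled CPM. Versions are not given in the sources used here, and the submitters' processing notes name hg19. No per-sample column was left unused (0). RefSeq identifiers were named through a RefSeq table of GRCh38.p14 (97.7% of 56868 rows). Rows without reads were dropped, equal rows counted once, and distinct intervals averaged (rates) or summed (CPM). CPM were whole multiples of 1 read (within 0.1 read) in 100% of values above 0, which gave counts. On these, edgeR called 195 lower genes and DESeq2 6 higher and 410 lower.

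limma (3.58.1, trend and robust, R 4.3.3) was fitted on log2(rate + 0.0005) where 3 or more of 6 libraries had a rate above 0, and on log2(CPM + 1) with TMM sizes for genes of at least 1 CPM in at least 3 of 6, with Benjamini-Hochberg adjustment over all genes and a threshold of 0.05. Log2 changes with a pseudocount understate the change of low values. edgeR (4.0.16) and DESeq2 (1.42.0) were alternatives. On simulated data, the rate test made more false calls than its threshold allows when genes with few reads were included, so the count over all genes is less reliable than that of genes with at least 200 reads. Changes smaller or in both directions were recovered less often than large rises. A second, easier simulation with large rises was added after the first had recovered few changes, and both were kept. The 10 genes and the gene lists were chosen with earlier results of these data known. Named genes were the 10, JUN, and from each list up to 3 genes with the largest change past the threshold. A gene that this rule would name is not reported here. Counts of 5 or fewer outside this rule were named after their values were seen. Same-numbered no 4sU and DMSO 4sU libraries deviated together in total mRNA (r = 0.41, 0.34 and 0.48 over 7379 genes) and not in rates (0.012, -0.0086 and 0.0079).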

Additional observations from a re-analysis of the deposited data

How the results depend on the processing

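The count of 7 genes with a higher conversion rate was 2 after centring on library medians. It was between 3 and 7 with libraries left out, lowest without replicate 2 of both groups and 4 without replicate 1 or 3. Without replicate 2 HSPA1A lost its call (adjusted p = 0.0530), without replicate 3 HSPA1B did (0.0598), and without replicate 1 or 2 HSPE1 did (0.0625 and 0.0704). HSP90AA1 and HSPB1 lost their calls in each of these runs without a replicate of both groups. DNAJB1 and HSPA8 passed under each alternative run. With the replicate number as a block the count was 5, HSP90AA1 and HSPB1 being lost (adjusted p = 0.0591 and 0.0643), and the numbers did not pair the rates. With at least 200 reads on average 8 of 10 genes and 4514 of 7364 genes rose. Centring reversed HSP90AA1 (-0.47), HSPB1 (-0.47), HSPH1 (-0.65), HSP90AB1 (-0.80) and HSPD1 (-0.97). Over all genes, leaving out a replicate of both groups gave 2241 to 2833 higher rates.

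In total mRNA the count stayed 0 of 10 under all alternatives, the replicate block (0, with edgeR also 0) included, and the block changed no other call among the 10 genes. Values near 0 changed sign. HSPA1A was -0.012 with edgeR and -0.027 with DESeq2, and HSPA1B was -0.0057 with edgeR, -0.018 with DESeq2 and -0.023 with no filter. With libraries left out HSPA1A ran from -0.35 to 0.25, HSPA1B from -0.22 to 0.15, HSP90AA1 from -0.058 to 0.094, HSP90AB1 from -0.011 to 0.58, HSPD1 from -0.26 to 0.069 and HSPE1 from -0.098 to 0.19. Over all genes, DESeq2 gave 6 higher and 410 lower, and leaving out libraries gave 26 to 441 lower. For IAA, 1216 genes met the criterion with a higher and 1329 with a lower rate, against 784 and 760 with a pseudocount of 0.002 and 1495 and 807 without centring. In total mRNA these were 16 and 8, against 48 and 25 with a pseudocount of 0.25, 5 and 1 with a pseudocount of 5, 28 and 3 without TMM, 13 and 3 with the interval of most reads, and 94 and 18, 11 and 10, and 14 and 1 without DMSO 4sU replicate 1, 2 and 3. None of these settings brought any of the 10 genes past the criterion. IAA values have no replicate check, and the coverage of T positions behind each rate is unknown.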
